A study of Capra hircus with 6 samples.

Results

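A circRNA is a circular transcript, and in exonic ones a downstream exon is spliced back to an upstream one. A stretch of goat chromosome 21 near 65 Mb gave 74 circRNAs. They are the circRNAs that the deposited tables assign to 3 host genes, LOC102191280, LOC102168946 and LOC106503383, and those listed as intergenic with start and end between positions 64990000 and 65200000 of the same sequence. The tables hold 76 such entries of 25500. Adding reads of entries whose starts lie 1 base apart with the same end left 74 circRNAs of 23980: 34 of LOC102168946, 10 of LOC102191280, 9 of LOC106503383 and 21 intergenic ones. The region was selected on measured values, namely the back-splice reads of its circRNAs and their difference between stages in these same libraries. Stage values below are therefore a description, and no p-value of a member is given.

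In the gene table supplied with the data the 3 genes lie between DLK1 and DIO3. In mouse, human and sheep this interval is an imprinted domain: the paternal copy makes the proteins DLK1, RTL1 and DIO3, and the maternal copy makes long noncoding RNAs, such as MEG3, MEG8 and MEG9, and clusters of microRNAs and small nucleolar RNAs. DLK1 is a membrane protein that affects muscle and fat growth, and in sheep a mutation of this domain, callipyge, gives enlarged muscles of the hindquarters. An exonic circRNA forms from exons of a longer transcript, lacks free ends and resists exonucleases. Its level therefore need not follow that of the linear RNA of its gene.

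Haimen goats were sampled at 2 stages: 3 libraries came from kids of day 1 (kid) and 3 from fetuses at day 75 of gestation (fetus), all from longissimus dorsi, a muscle along the spine. Ribosomal RNA was removed in all of them, and RNase R was used to digest linear transcripts before library preparation. The labels do not say that each library is a different animal, so the spread between libraries may in part be technical. Whether a lower value means fewer cells of a type or less of the RNA in each cell cannot be told apart in bulk muscle.

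The kid libraries held 42695 to 77111 back-splice reads and the fetus libraries 33222 to 56467, and in fetus 1 and fetus 2 a smaller share of the raw reads was kept after trimming (70.7% and 69.1%) than in the other libraries (84.0% to 87.9%). Circular RNA of skeletal muscle marker genes was present in every library: all 16 listed markers had reads, and their summed level was 17108 to 22265 CPM in kid libraries and 9975 to 10449 CPM in fetus libraries. Here CPM is counts of back-splice reads scaled to the library's back-splice total with TMM factors. Of 8 muscle genes tested, 3 rose in kid libraries at an adjusted p of at most 0.05 (ATP2A1, CKM and NEB) and 5 did not pass. Of all 1755 host genes tested 11.9% rose and 7.46% fell. Markers of other cell types were sparse. Summed endothelial markers were at 41.7 to 162 CPM in kid and 80.0 to 250.1 CPM in fetus libraries, with CDH5 at 0 in all. Fibroblast and cartilage markers were at 55.6 to 297 CPM in kid and 336 to 524 CPM in fetus libraries, with COL2A1, ACAN and SOX9 at 0. Nerve and glia markers were at 0 to 13.9 CPM in kid and 32.0 to 111 CPM in fetus libraries, fat markers at 0 to 27.0 CPM in kid and 0 in fetus libraries, and blood and immune markers at 0 in kid and 0 to 24.9 CPM in fetus libraries; SOX10, ADIPOQ, PTPRC and HBB were among those at 0 in all. The summed fibroblast and nerve lists were thus higher in every fetus library than in any kid library. For the fibroblast list this rested on POSTN, a matrix protein gene that fell, with 0 reads in kid libraries and 21, 6 and 8 reads in fetus libraries. None of the list's other genes had a read in fetus 1, and COL1A1 had 14 reads in kid and 5 in fetus libraries. The part of these markers in the values of the region was not tested.

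The description "noncoding" fits the annotation of 2 of the 3 genes. The gene table types LOC102168946 and LOC106503383 as lncRNA, long RNAs without a known protein, and LOC102191280 as protein coding. The deposited file names LOC102191280 after a predicted proline-rich receptor-like protein kinase and at the same time calls the transcript a miscellaneous RNA. Its reads fell mostly on noncoding transcript models: 5 circRNAs with 4114 reads were listed on noncoding models and 5 with 308 reads on models of messenger RNA. No function of any of the 3 is given in the sources used here. The gene table gives the names MEG3, MEG8, MEG9 and MIRG to no goat gene.

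From DLK1 to DIO3 the gene table lists 57 genes, of which 45 are microRNA genes, 8 are lncRNA genes and 4 are protein coding. LOC102191280 is the next gene after DLK1. The lncRNA gene LOC108638502, RTL1 and the microRNA genes MIR493, MIR665, MIR433, MIR127, MIR432 and MIR136 lie between it and LOC108638533, a further lncRNA gene, which is followed by LOC102168946, LOC106503383 and LOC106503398. A run of 38 microRNA genes, from MIR379 to MIR656, comes after these. None of the 45 microRNA genes hosted a circRNA read. DLK1 had 2 reads in all, 1 in kid 3 and 1 in fetus 3, and RTL1, DIO3 and BEGAIN had none.

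All 74 circRNAs were on the plus strand, between positions 64997811 and 65198138 of chromosome 21 as numbered in the deposited tables (genome build not given in the sources used here). By class 40 were exonic, 13 intronic and 21 intergenic. Intergenic ones made up 28.4% of the circRNAs here and 2.57% of the 23980 in the whole series, while exonic ones made up 54.1% here and 86.8% overall. These shares are not like for like, since the selection took every intergenic circRNA of the window but only 3 host genes. The neighbouring lncRNA genes LOC108638533 and LOC106503398, with 8 and 11 listed entries, were left out. The exonic ones joined a median of 4 exons (3 overall) and had a median listed length of 545.5 bases (452 overall). In LOC102168946 they covered 2 to 17 exons.

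The region held 9353 back-splice reads, 5488 in kid and 3865 in fetus libraries. Reads were concentrated: 3 circRNAs held 77.4% of them, namely circRNA2380 of LOC102191280, circRNA6203 of LOC106503383 and the intergenic circRNA6645. Ranked by reads over the series, these were the 3rd, the 8th and the 31st circRNA. By the reads of all its circRNAs LOC102191280 was the 3rd of 6418 host genes, LOC106503383 the 6th and LOC102168946 the 27th. LOC106503383 and LOC102168946 together held 71.1% of the 5133 reads of all 84 lncRNA host genes. At the other extreme, 14 of the 74 circRNAs had 1 read and 33 were seen in a single library. Both stages had reads of 34 circRNAs, 22 were seen in kid libraries alone and 18 in fetus libraries alone, and 13 were seen in all 6 libraries.

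**Figure D1:**
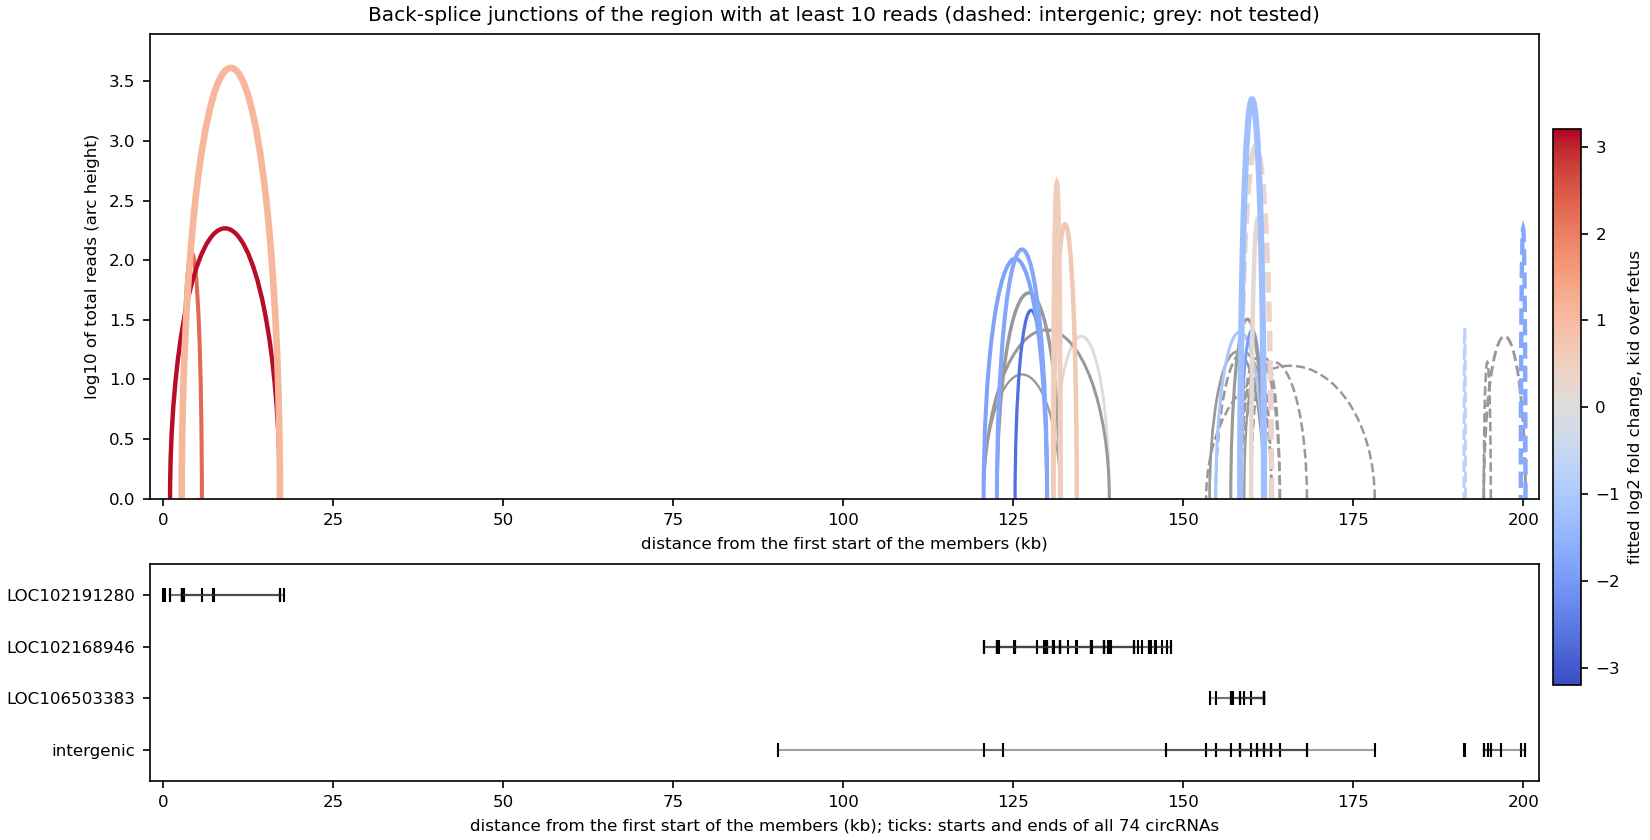
Map of the region. In the upper panel each arc joins the start and the end of a circRNA with at least 10 reads, at its distance in kb from the first start, and its height is the log10 of its total reads; colour is the fitted log2 fold change of kid over fetus, dashed arcs are intergenic and grey arcs were not tested. The lower panel marks the starts and ends of all 74 circRNAs by host: arcs of LOC102191280 are red, and LOC102168946 holds a blue group of arcs beside a pale red one.

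The region took a similar share of the back-splice reads at both stages, but its 3 genes did not move together. The region's reads made up 2.50%, 3.52% and 2.79% of the library in kid 1, 2 and 3, and 2.94%, 3.25% and 3.03% in fetus 1, 2 and 3. The stages overlapped, with kid 2 highest and kid 1 lowest of all 6. In the host gene fit the summed level was 32363 ± 7236 CPM in kid and 28037 ± 1711 CPM in fetus libraries (SD, n = 3 each), a log2 fold change of kid over fetus of 0.21 ± 0.16 (SE) that did not pass an adjusted p of 0.05 in edgeR's quasi-likelihood test and was -0.0685 without TMM scaling. Of the 1755 host genes tested 11.9% rose and 7.46% fell in kid libraries by that threshold, and in 37.2% the stages did not overlap.

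LOC102191280 had 1122, 761 and 1415 reads in kid 1, 2 and 3 and 334, 304 and 486 reads in fetus 1, 2 and 3. Scaled to the library totals this was 15584, 20559 and 20428 CPM in kid libraries and 8329, 8447 and 7773 CPM in fetus libraries. Every kid library lay well above every fetus library. The mean was 18857 ± 2835 CPM in kid and 8183 ± 360 CPM in fetus libraries (SD, n = 3 each), the log2 fold change was 1.20 ± 0.16 (SE), and the gene rose. It made up 58.2%, 50.7% and 68.7% of the region's reads in kid libraries and 31.2%, 28.1% and 28.4% in fetus libraries.

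LOC106503383 showed the opposite order. It had 268, 379 and 258 reads in kid libraries and 447, 490 and 729 reads in fetus libraries, which gave 3722, 10239 and 3725 CPM in kid libraries and 11147, 13615 and 11660 CPM in fetus libraries. The stages did not overlap, but kid 2 lay just under the fetus libraries and far from the other kid libraries. The mean was 5895 ± 3762 CPM in kid and 12141 ± 1302 CPM in fetus libraries (SD, n = 3 each), and the log2 fold change of -1.06 ± 0.34 (SE) narrowly missed the threshold; it passed without kid 2 (-1.71), kid 3 (-0.84) or fetus 2 (-1.04).

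LOC102168946, of the 3 the gene with the most circRNAs, had nearly equal sums: 258, 160 and 164 reads in kid libraries and 114, 121 and 260 reads in fetus libraries. The mean was 3425 ± 987 CPM in kid and 3454 ± 663 CPM in fetus libraries (SD, n = 3 each), a log2 fold change of -0.03 ± 0.22 (SE) that did not pass and changed sign when kid 3 (0.17) or fetus 3 (0.07) was left out. The summed intergenic circRNAs were at 4175 ± 1140 CPM in kid and 4272 ± 429 CPM in fetus libraries, a log2 fold change of -0.04 ± 0.20 (SE) that did not pass either and changed sign without kid 1 (0.01) or kid 3 (0.11). Among the tested circRNAs of these near-equal sums, 3 of LOC102168946 and 1 intergenic one fell, and 0 rose. Those with a fitted change above 0 did not pass.

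**Figure D2:**
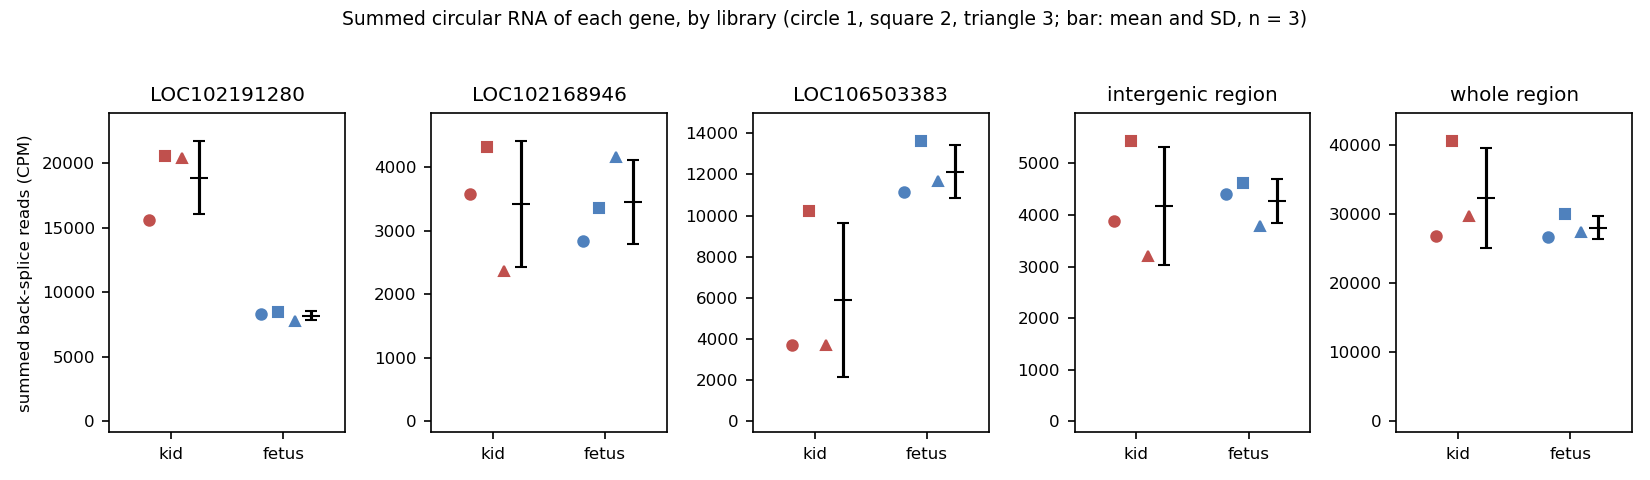
Summed level (CPM) of the circRNAs of each gene, of the intergenic circRNAs and of the whole region in each library, kid left of fetus. Points are libraries and the black bars give mean and SD (n = 3); LOC102191280 is higher in all 3 kid libraries, LOC106503383 is lower with kid 2 close to the fetus libraries, and the other panels overlap.

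Among single circRNAs 16 of the 74 had enough reads for the fit, at least 5 in at least 3 libraries, and these held 95.7% of the region's reads. Of the 16, 3 rose in kid libraries, beside 9.23% of all 1960 circRNAs tested, 4 fell, beside 5.92%, and 9 did not pass. With 1 library left out 2 or 3 rose and 2 to 5 fell, and 2 fell without kid 1, kid 3, fetus 2 or fetus 3; with fetus 3 as the only fetus library 0 rose and 0 fell, where 16 and 2 of all 1638 tested did. Kid and fetus values did not overlap for 8 of the 16, beside 37.2% of all tested. The fitted log2 fold changes ran from -2.67 to 3.15 with a median of -0.33, beside 0.07 over all circRNAs tested. A circRNA seen well at 1 stage passes the read filter through that stage, so these counts do not stand for the 58 circRNAs that were not tested.

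**Figure D3:**
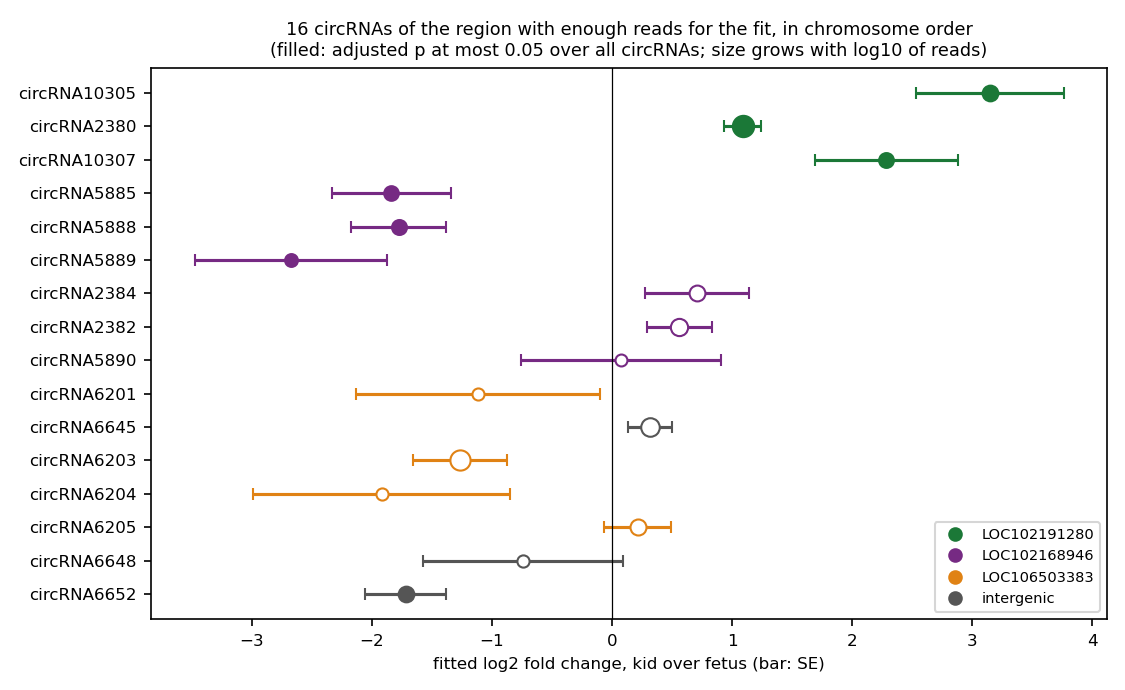
Fitted log2 fold change of kid over fetus (horizontal axis) with its SE for the 16 circRNAs tested, in chromosome order from top to bottom and coloured by host. Filled points passed an adjusted p of 0.05 over all circRNAs tested; the 3 of LOC102191280 lie right of 0, the 3 upstream ones of LOC102168946 and the last intergenic one lie left of it.

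The 3 circRNAs of LOC102191280 that were tested all rose. The first, circRNA2380 (chr21:65000513-65014965, 3 exons, listed length 4382 bases), had 1040, 691 and 1291 reads in kid libraries and 331, 292 and 461 reads in fetus libraries. All kid libraries were above all fetus libraries, at 17018 ± 2122 CPM in kid and 8007 ± 427 CPM in fetus libraries (SD, n = 3 each), a log2 fold change of 1.09 ± 0.15 (SE). It carried 92.7%, 90.8% and 91.2% of the gene's reads in kid libraries and 99.1%, 96.1% and 94.9% in fetus libraries.

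The second, circRNA10305 (chr21:64998803-65014965), ends at the same position but starts further upstream and is listed with 4 exons. It had 41, 55 and 73 reads in kid libraries and 0, 3 and 13 reads in fetus libraries. Its level was 1015 ± 420 CPM in kid and 98.7 ± 108 CPM in fetus libraries, a log2 fold change of 3.15 ± 0.61 (SE), and the stages did not overlap. The change passed in all 6 fits with 1 library left out, at 2.56 without fetus 1 and 4.53 without fetus 3. The third, circRNA10307 (chr21:65000514-65003481, 2 exons), starts within 1 base of circRNA2380 and ends before it. It had 40, 15 and 45 reads in kid libraries and 0, 7 and 8 reads in fetus libraries, and its log2 fold change was 2.29 ± 0.60 (SE). The lowest kid library, kid 2 at 386 CPM, was above the highest fetus library, fetus 2 at 192 CPM, and the call was lost without kid 1, kid 3, fetus 1 (log2 fold change 1.68) or fetus 3.

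As a group, the 9 circRNAs of this gene other than circRNA2380 were at 1582 ± 371 CPM in kid and 272 ± 174 CPM in fetus libraries, a ratio of means of 5.81, with no overlap. Their fold was larger than that of circRNA2380, and the difference between the folds was not tested. The 7 circRNAs that were not tested held 16 reads.

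Of the 6 tested circRNAs of LOC102168946 3 fell, all of which end at position 65127781, and 3 did not pass. The largest of those that fell, circRNA5888 (chr21:65120408-65127781, 7 exons, 425 bases), had 17, 9 and 7 reads in kid libraries and 21, 23 and 46 reads in fetus libraries. On the CPM scale it was at 191 ± 77.5 in kid and 641 ± 111 in fetus libraries, the stages did not overlap, and it fell with a log2 fold change of -1.77 ± 0.40 (SE).

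The neighbouring circRNA5885 (chr21:65118442-65127781, 8 exons, 1333 bases) had 13, 9 and 4 reads in kid libraries and 13, 20 and 44 reads in fetus libraries. It fell too (log2 fold change -1.84 ± 0.49, SE), with all kid libraries below all fetus libraries in CPM. The third, circRNA5889 (chr21:65123075-65127781, 5 exons), fell with 2, 4 and 0 reads in kid libraries and 13, 7 and 12 reads in fetus libraries, a log2 fold change of -2.67 ± 0.80 (SE). An intronic circRNA with the same end, ciRNA208, had no read in kid libraries and 3, 2 and 3 reads in fetus libraries. Set against a floor of 3 reads for the kid group as a whole, its pooled reads were 3.50-fold higher in fetus libraries. That fold was 2.11 and 2.15 without kid 1 or kid 3, and it leaves out the counting error of the fetus reads. The call of circRNA5885 was lost without kid 1, kid 3, fetus 2 or fetus 3, and that of circRNA5889 without kid 1 or kid 3 (-1.98). Too few reads were left to test circRNA5889 without fetus 1, fetus 2 or fetus 3, so its call held in 1 of the 6 fits with 1 library left out, that without kid 2 (-3.84).

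The 4 circRNAs with this end together had 32, 22 and 11 reads in kid libraries and 50, 52 and 105 reads in fetus libraries. That is 392 ± 209 CPM in kid and 1475 ± 230 CPM in fetus libraries, with no overlap.

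The other main group of the gene starts at position 65128697, 916 bases downstream of that end. Its largest member, circRNA2382 (chr21:65128697-65129740), is a small circle of 2 exons and 161 bases. It had 135, 70 and 78 reads in kid libraries and 40, 30 and 84 reads in fetus libraries, or 1609 ± 419 CPM in kid and 1074 ± 284 CPM in fetus libraries; the log2 fold change was 0.56 ± 0.27 (SE), did not pass, and kid 3 overlapped the fetus libraries. The next, circRNA2384 (chr21:65128697-65132148, 3 exons, 233 bases), had 40, 56 and 36 reads in kid libraries and 11, 23 and 35 reads in fetus libraries. Kid 2 stood highest at 1440 CPM, while the other kid libraries lay among the fetus libraries, and the log2 fold change of 0.71 ± 0.43 (SE) did not pass. The 4 circRNAs of the group were at 2535 ± 838 CPM in kid and 1679 ± 350 CPM in fetus libraries, with overlap.

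Shares within the gene do not depend on how the libraries are scaled. These groupings were chosen after the values were seen, and each is a description. The circRNAs with the upstream end made up 12.4%, 13.8% and 6.71% of the gene's reads in kid libraries and 43.9%, 43.0% and 40.4% in fetus libraries. Those with the downstream start made up 70.2%, 81.9% and 71.3% in kid libraries and 48.2%, 47.1% and 48.5% in fetus libraries. Together the groups held most of the gene's reads, so the second share largely restates the first and is not a separate difference. The fetus libraries lay close together in both, and the exact 95% binomial intervals of the upstream share, which cover counting error only, did not reach from any kid library (highest bound 20.1%) to any fetus library (lowest bound 34.0%).

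Of the circRNAs that span both groups, that with the most reads was seen at 1 stage. Its name is circRNA17590 (chr21:65120408-65129740, 9 exons, 586 bases); it starts where circRNA5888 starts and ends where circRNA2382 ends, and its listed length is the sum of theirs. It had 31, 0 and 22 reads in kid libraries and none in fetus libraries. Set against a floor of 3 reads for the fetus group as a whole, its pooled reads were 13.5-fold higher in kid libraries, or 7.47-fold without fetus 3. The counting error of the kid reads is left out of these folds, and kid 2 had no read. The matching form with the start of circRNA5885, circRNA9823 (10 exons, 1494 bases), had no read in kid libraries and 0, 4 and 7 reads in fetus libraries. A longer form with that start, circRNA5886 (chr21:65118442-65136935, 15 exons), was seen at both stages. It had 9, 2 and 4 reads in kid libraries and 3, 2 and 6 reads in fetus libraries, or 78.6 ± 41.6 CPM in kid and 76.6 ± 21.9 CPM in fetus libraries. The 28 circRNAs of LOC102168946 that were not tested held 152 reads, those of circRNA17590 included.

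In LOC106503383 most reads came from circRNA6203 (chr21:65156181-65159681, 4 exons, 859 bases), which had 193, 326 and 204 reads in kid libraries and 410, 447 and 654 reads in fetus libraries. Its level was 2714, 8381 and 2950 CPM in kid libraries and 10450.2, 12249 and 10756 CPM in fetus libraries. As for the gene's sum, all kid libraries were below all fetus libraries and kid 2 stood apart from the other kid libraries. The log2 fold change of -1.27 ± 0.39 (SE) did not pass. It passed in 6 of 15 alternatives, among them the fit without kid 2 (-1.95), that without TMM scaling (-1.50) and DESeq2's Wald test (-1.29). The gene's other 8 circRNAs together were at 1066 ± 291 CPM in kid and 1118 ± 154 CPM in fetus libraries, with overlap. The largest of these, circRNA6205 (chr21:65157793-65159681, 3 exons), starts inside circRNA6203 and shares its end. It had 47, 35 and 50 reads in kid libraries and 20, 28 and 41 reads in fetus libraries, a log2 fold change of 0.21 ± 0.28 (SE) that did not pass and was -0.0177 without TMM scaling.

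The intergenic circRNA6645 (chr21:65156181-65160781) starts at the very position of circRNA6203 and ends 1100 bases after it, beyond the annotated gene's circRNAs. It had 228, 141 and 188 reads in kid libraries and 107, 90 and 149 reads in fetus libraries, at 3183 ± 454 CPM in kid and 2548 ± 155 CPM in fetus libraries. Kid 3 overlapped the fetus libraries, and the log2 fold change of 0.32 ± 0.18 (SE) did not pass.

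Between these 2 ends of the common start, circRNA6203 took 45.8%, 69.8% and 52.0% of the reads in kid libraries and 79.3%, 83.2% and 81.4% in fetus libraries. The mean share was 55.9 ± 12.4% in kid and 81.3 ± 1.97% in fetus libraries (SD, n = 3 each), with no overlap; kid 2 again came nearest to the fetus libraries. Over the whole series 150 starts had 2 tested ends that could be compared in this way, and in 31.3% of them the stages did not overlap. The median absolute difference of the 150 was 10.3 percentage points, and that of circRNA6203, -25.4 points, was the 25th in size. Another pair of the region, circRNA2382 and circRNA2384 of LOC102168946, hardly differed. There circRNA2382 took a mean of 67.0% in kid and 68.5% in fetus libraries, with overlap, a difference of -1.50 points that was the 141st in size. Among the exonic circRNAs with the end of circRNA6203, circRNA6205 took 18.1%, 9.36% and 19.5% of the reads in kid libraries. In fetus libraries it took 4.47%, 5.71% and 5.73%, without overlap. Most reads with this end were of circRNA6203, so this share largely restates its lower level in kid libraries and is not a separate difference. The share between the 2 ends also draws on the level of circRNA6203, and the change of circRNA6645 did not pass.

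**Figure D4:**
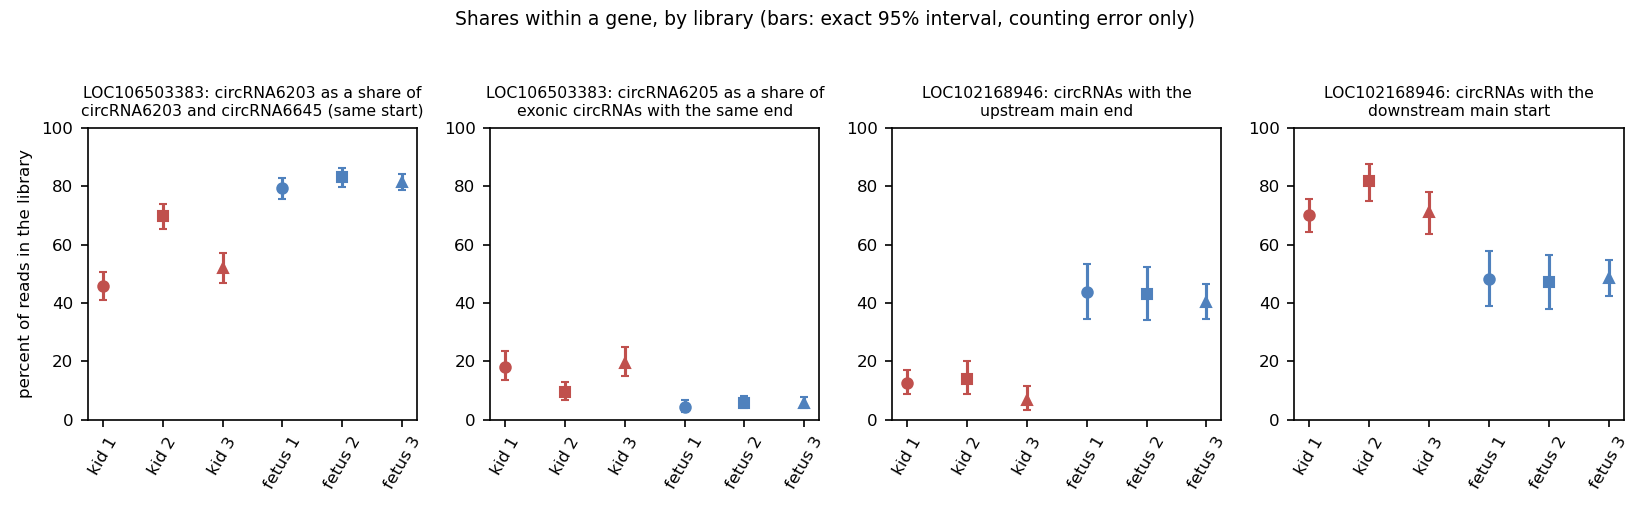
Shares of reads within LOC106503383 (2 left panels) and LOC102168946 (2 right panels), in percent, in each library, with kid libraries left of fetus libraries. Bars are exact 95% intervals for counting error; in each panel the 3 fetus libraries lie close together and apart from the kid libraries, with kid 2 nearest to them in both panels of LOC106503383.

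Several boundaries were used again and again. The end of circRNA6203, position 65159681, was the end of 11 of the 74 circRNAs, 3 of them intergenic. Of the 21 intergenic circRNAs 12 (57.1%) had a start or an end in common, starts to within 1 base, with exonic circRNAs of annotated genes, and these held 79.3% of the intergenic reads of the region. Over all 617 intergenic circRNAs of the series that share was 18.6% of circRNAs. One of the 12, circRNA19883, runs from a start of LOC102168946 to the end of circRNA6203 and so spans both genes; it had 4 reads, all in kid 2. Another of the 12, circRNA18122, with the end of circRNA6645, had 6, 7 and 4 reads in kid libraries and none in fetus libraries. Against the same floor its pooled reads were 4.32-fold higher in kid libraries, or 2.39-fold without fetus 3. In the other direction circRNA6647, with the inner start, had no read in kid libraries and 10, 5 and 0 reads in fetus libraries.

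Another 6 intergenic circRNAs, all that start downstream of the 3 genes, were lower in kid libraries as a group. Together they had 35, 20 and 21 reads in kid libraries and 51, 54 and 79 reads in fetus libraries, or 437 ± 116 CPM in kid and 1360 ± 104 CPM in fetus libraries (SD, n = 3 each), with no overlap. The 15 other intergenic circRNAs were at 3668 ± 895 CPM in kid and 2960 ± 321 CPM in fetus libraries, with overlap. Most reads of the downstream group belonged to circRNA6652 (chr21:65197448-65198138, 691 bases), which had 24, 15 and 13 reads in kid libraries and 33, 45 and 54 reads in fetus libraries. It was at 304 ± 103 CPM in kid and 987 ± 214 CPM in fetus libraries, and it fell with a log2 fold change of -1.72 ± 0.34 (SE). The same end was used by circRNA6651, which had 4, 0 and 0 reads in kid libraries and 2, 5 and 12 reads in fetus libraries.

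**Figure D5:**
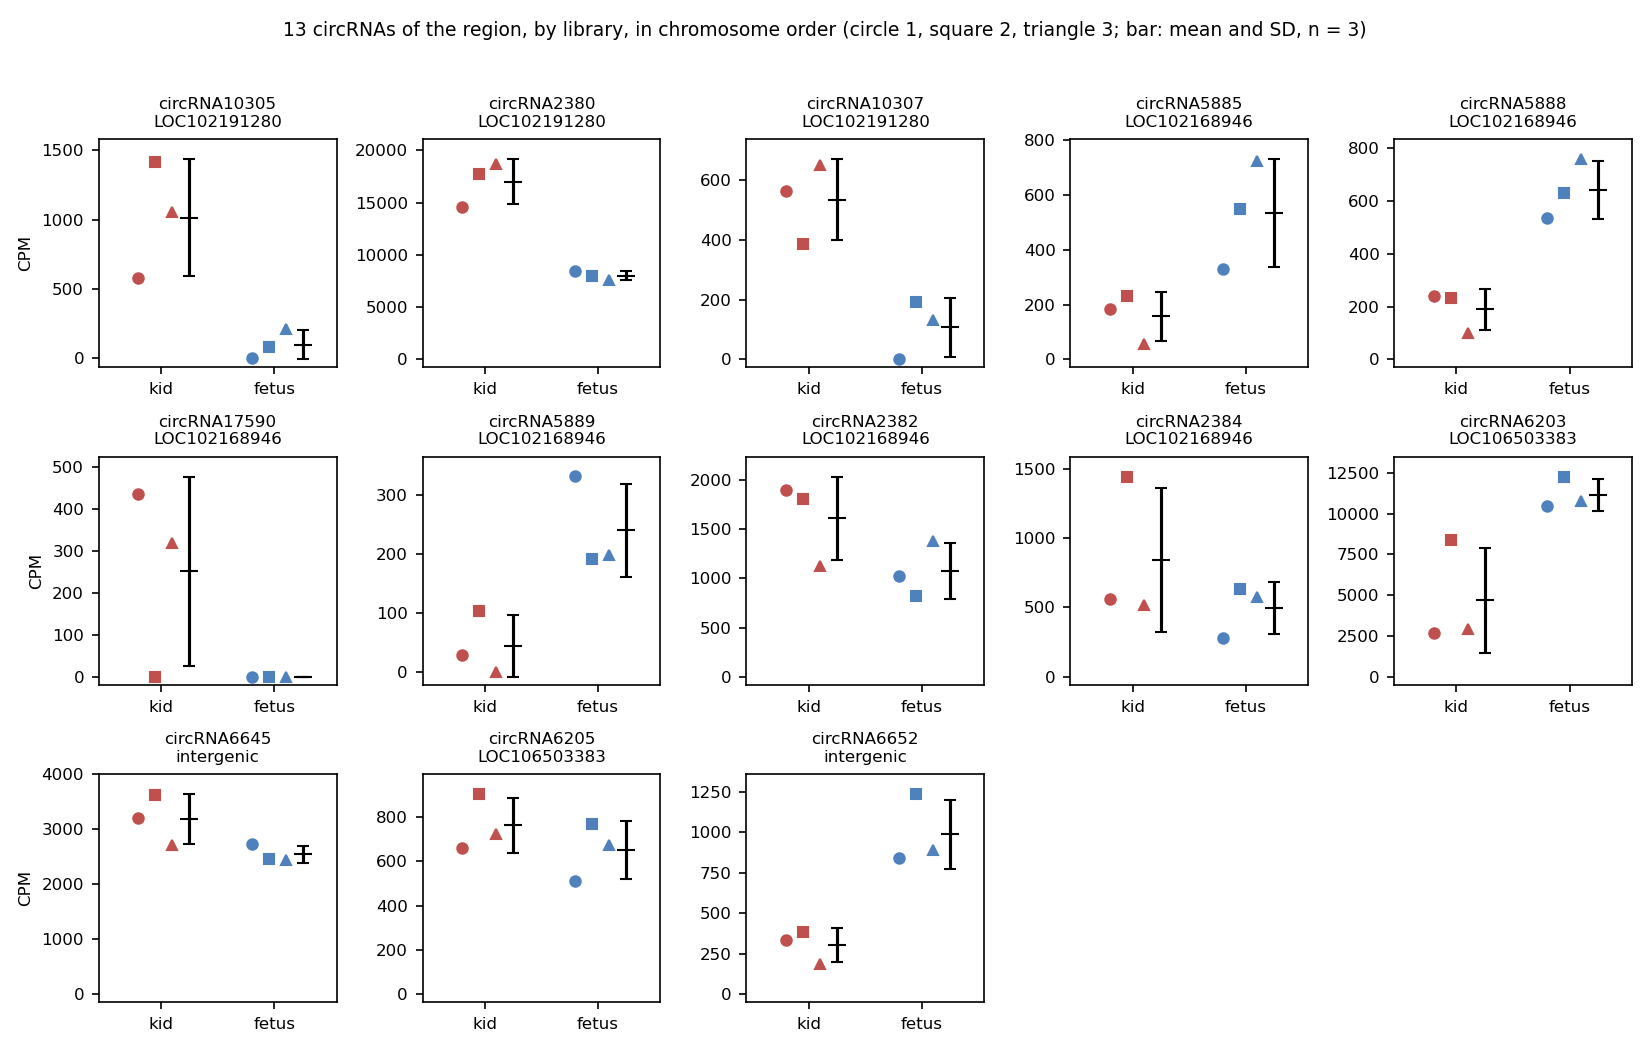
Level (CPM) in each library of the 13 circRNAs named by rule, in chromosome order, kid left of fetus, each panel on its own scale. Points are libraries and black bars give mean and SD (n = 3); the 3 of LOC102191280 are higher in kid libraries, circRNA5885, circRNA5888, circRNA5889, circRNA6203 and circRNA6652 are lower, and the others overlap.

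The window's far border fell inside a run of intergenic circRNAs. Its last circRNA was circRNA6652, and the next beyond the border, circRNA6653 and circRNA6654, had 5 and 21 reads; circRNA6654 had 0, 3 and 0 reads in kid libraries and 10, 8 and 0 reads in fetus libraries. The 58 circRNAs of the region that were not tested, 402 reads in all, were summed at 1246 ± 384 CPM in kid and 1372 ± 124 CPM in fetus libraries, with overlap. In the authors' deposited table, which calls a circRNA significant by an unadjusted p, 14 of the 76 entries (18.4%) were so called, 5 higher in kid and 9 higher in fetus, beside 3.26% of all 25500 entries. These shares are not like for like, since the region was selected on its reads and its stage difference. After joining, the median was 5 reads per circRNA in the region and 2 in the whole series, where 35.5% had 1 read.

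Beyond the 3 genes, 8 host genes within 1 Mb of the window had circRNA reads and 4 were tested. LOC108638533, the lncRNA gene just before LOC102168946, had 10, 4 and 4 reads in kid libraries and 22, 12 and 36 reads in fetus libraries. It was at 102 ± 41.0 CPM in kid and 486 ± 133 CPM in fetus libraries and fell, lower in 3 of 3 kid libraries, with a log2 fold change of -2.26 ± 0.47 (SE). LOC106503398, the lncRNA gene just after LOC106503383, had 4, 5 and 7 reads in kid libraries and 6, 8 and 14 reads in fetus libraries, with a log2 fold change of -1.09 ± 0.60 (SE) that did not pass. EML1, a microtubule-binding protein, had 56 reads in kid and 23 reads in fetus libraries (log2 fold change 0.96 ± 0.50, SE), and PPP2R5C, a regulatory subunit of protein phosphatase 2A, had 7 reads in kid and 21 reads in fetus libraries (-1.96 ± 0.84); neither passed.

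Of 36 genes known as imprinted in mammals, a list that includes DLK1, DIO3 and other genes of the domain itself, 13 had circRNA reads and 5 were tested: 1 rose, 1 fell and 3 did not pass. The list counts MEG3, MEG8 and MEG9 as without reads, though the gene table gives these names to no goat gene. The 13 of 36 is therefore not a share of annotated goat genes. UBE3A, a ubiquitin ligase, rose to 43100 ± 7782 CPM in kid libraries, against 12708 ± 137 CPM in fetus libraries (log2 fold change 1.76 ± 0.15, SE). IGF2R, which takes up and clears the growth factor IGF2, fell to 224 ± 35.4 CPM in kid libraries, against 557 ± 196 CPM in fetus libraries (-1.30 ± 0.39). Of the 84 lncRNA host genes, LOC106503383 and LOC102168946 included, 18 were tested, of which 4 rose and 1, LOC108638533, fell. The median log2 fold change of the 18 was -0.05, beside 0.05 over all host genes tested. To be set beside the counts of both lists, 11.9% of all 1755 host genes tested rose and 7.46% fell.

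The host genes whose levels over the 6 libraries were most like the summed region were FCHO2, FAM135A, SMS, TMEM67 and ZEB1. After centring log2(CPM + 10) on each gene's mean, their root mean square difference from the region was 0.0604, 0.0863, 0.112, 0.122 and 0.124, beside a median of 0.586 over the 1168 host genes compared. Nearest to LOC102191280 were INSR (0.0950) and DMD (0.0988), nearest to LOC102168946 were JAM2 (0.0982) and TM6SF1 (0.100), and nearest to LOC106503383 was DIP2C, at a larger distance of 0.218. All these values rest on 6 libraries that share their scaling.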

How the data were processed

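The deposited files hold, per the file headers, raw and valid read counts and percent values of quality per library, and for each circRNA the counts of back-splice reads, the authors' normalized signal (SRPBM), class, position, exon number, length and host. The authors' deposited comparison adds log2 fold changes of fetus over kid, p-values and q-values. Cutadapt, FastQC and TopHat appear in the submitters' processing notes. The caller, build and annotation are not named in the sources used here. Libraries had 34123876 to 52035202 valid reads.

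Back-splice counts were analysed, not SRPBM. Entries with starts 1 base apart and equal ends were added over the whole table (1506 groups; in 23 of 1496 pairs a library had reads of both). Hosts given as numbers (4563) were all matched to symbols in the supplied gene table. CPM and log2 fold changes (kid minus fetus) came from edgeR 4.0.16 in R 4.3.3 with TMM factors, glmQLFit with robust settings, no covariate and Benjamini-Hochberg adjustment over all features tested (5 or more reads in 3 or more libraries), once for circRNAs and once for reads summed per host gene. An SE was taken from the fold change and its F statistic. The script was tested on simulated data. PCR copies of a molecule are counted as separate reads, so floors and intervals reflect counting error alone. A fold over a floor takes the reads of the other stage without their error, so it is not a lower limit.

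The members and gene lists were chosen with earlier results of these data known. Named by rule were the 12 circRNAs with the most reads, the 2 with the most reads of each gene and of the intergenic ones, and any that passed against the direction of the region's sum; others were chosen after their values were seen. Alternatives covered scaling, DESeq2 1.42.0, filter, joining, count table, replicate block and left-out libraries; the one with fetus 3 as the only fetus library was added after seeing the data.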

Additional observations from a re-analysis of the deposited data

How the results depend on the processing

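LOC102191280 kept its direction and passed in all 15 alternatives (log2 fold change 1.11 to 1.33 with 1 library left out). For sums, the alternative without joining repeats the main fit by construction, so it is no check of them. That with the other count table is a weak check, since the counts of the region's circRNAs are the same in both. LOC106503383 stayed lower in kid libraries in all 15 and passed in 7: -1.35 without TMM, -1.22 with valid reads as library sizes, -1.04 without a filter, -1.21 with the replicate block, and in 3 of the 6 fits that left out 1 library (-1.71, without kid 2, to -0.82, without kid 1). Sums near 0 changed sign: the whole region was at -0.0685 without TMM (0.00 to 0.33 with 1 library left out), LOC102168946 ran from -0.22 to 0.17 (0.17 without kid 3, 0.07 without fetus 3), and the intergenic sum ran from -0.26 to 0.11 (0.01 without kid 1, 0.11 without kid 3) and was at 0.0876 with fetus 3 as the only fetus library. The single circRNA6205 was at -0.0177 without TMM and -0.00769 without fetus 1 (up to 0.30 without kid 1). Without TMM the median of all circRNAs tested was -0.16 in place of 0.07, and that of host genes -0.21 in place of 0.05. The number of circRNAs of the region that fell (4) was 2 to 5 with 1 library left out, and it was 2 without kid 1, kid 3, fetus 2 or fetus 3; the number that rose (3) was 2 to 3. With fetus 3 as the only fetus library 0 rose and 0 fell, where 16 and 2 of all 1638 circRNAs tested did; that lone library is assumed to vary like the kid libraries. Of the single circRNAs that passed, circRNA10307 and circRNA5885 missed the threshold in 6 of 15 alternatives and circRNA5889 in 6 of the 11 in which it had the reads to be tested; circRNA2380, circRNA10305, circRNA5888 and circRNA6652 missed it at most in the fit with fetus 3 alone. circRNA6203 passed in 6 of 15: without kid 2 (-1.95), without TMM (-1.50), with valid reads as library sizes (-1.40), with DESeq2's test (-1.29), without a filter (-1.21) and with the replicate block. Of the 281 alternative values in all, 86 of the sums and counts and 146 of the single circRNAs kept direction and side of the threshold (counts: stayed within 1.5 times). The sums that repeat the main fit by construction are counted among the 86.

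Kid and fetus libraries share replicate numbers, but deviations from the stage means of libraries with the same number correlated at 0.02, 0.03 and -0.02, so the numbers were not taken to pair them. With the replicate block LOC106503383 (-1.21) and circRNA6203 (-1.45) passed, circRNA5885 (-1.82) and circRNA5889 (-2.77) did not, and calls over all circRNAs were 144 higher and 84 lower in place of 181 and 116; the cause was not tested. Depth limits the minor forms: 3 reads are 42.2 CPM in the deepest library and 82.2 CPM in the shallowest.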
